A study of Mus musculus with 24 samples.

Results

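Nuclear RNA from sorted hippocampal nuclei was examined for 9 genes that mark the subfields of the hippocampus. They were taken by symbol from the count tables, and all 9 of 9 were listed among 55254 genes and passed the filter on low counts in every fit. The set holds 3 dentate gyrus genes (Prox1, C1ql2 and Dsp), 3 CA1 genes (Wfs1, Fibcd1 and Mpped1), 2 CA2 genes (Amigo2 and Rgs14) and 1 CA3 gene (Cpne4). The libraries came from hippocampi of male C57BL/6N mice aged 6 months, kept in their home cages, that were wild type (WT), lacked the DNA glycosylase Mutyh (Mutyh-/-), lacked the DNA glycosylase Ogg1 (Ogg1-/-) or lacked both (DKO). Nuclei were separated by an antibody against NeuN, the product of Rbfox3 in neuronal nuclei, into NeuN+ (neuronal) and NeuN- (non-neuronal) fractions, and each of the 8 groups had 3 libraries, 24 in all. Nuclei of several animals were pooled, and the labels do not say whether replicates hold different animals, so p-values measure the spread between libraries and not directly between animals.

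The hippocampus is a chain of subfields with different principal cells. Granule cells of the dentate gyrus send mossy fibres to CA3 pyramidal cells, these project to CA1, and CA2 lies between CA3 and CA1 with its own inputs and outputs. Each subfield keeps a set of genes that the neighbouring subfields express little, so the RNA of such genes in a bulk library follows the mix of principal cells that went into it. In bulk libraries, fewer nuclei of a type and less RNA per nucleus cannot be told apart. The comparisons below address whether the subfield make-up of the sorted nuclei was alike in the 4 genotypes.

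A library held between 56563586 and 96192142 counts in total (median 70434612). Levels are given as CPM, counts per 1000000 of a library, after TMM scaling of all 24 libraries together, and since CPM takes no account of gene length, levels of different genes were not compared. Rbfox3 was at 1459 ± 26.6 (SD, n = 3) CPM in WT NeuN+ and at 90.0 ± 8.81 (SD, n = 3) CPM in WT NeuN-, and the summed level of 5 oligodendrocyte genes ranged from 117 to 140 CPM over the NeuN+ libraries against 4501 to 6765 CPM over the NeuN- libraries. The NeuN+ and NeuN- libraries were sequenced on different lanes, so lane and fraction cannot be told apart. The counts of the targeted genes did not show the deletions as a loss, and those of Mutyh were higher under the labels that lack it. Mutyh was at 8.47 to 12.2 CPM in the NeuN+ libraries labelled Mutyh-/- or DKO and at 1.15 to 1.41 CPM in the other NeuN+ libraries, and Ogg1 was at 3.21 to 3.66 CPM in Ogg1-/- against 2.77 to 3.78 CPM in WT. Counts per gene do not show which exons were read, so genotypes are named here as the labels give them.

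None of the 9 genes was called different from WT in any knockout, in NeuN+ or in NeuN- nuclei, although the CA1 gene Fibcd1 in NeuN- came close and was called in Ogg1-/- by other fits. A call needed an adjusted p under 0.05 (quasi-likelihood test of edgeR, Benjamini-Hochberg adjustment over all genes tested) together with a log2 fold change beyond 0.5 in either direction. The share of all tested genes called in NeuN+ was 0.428% for Mutyh-/-, 0.574% for Ogg1-/- and 0.302% for DKO, and in NeuN- it was 0.273%, 0.229% and 0.116%, shares at which less than 1 of 9 genes would be called. At an unadjusted p under 0.05 stood 1, 1 and 0 of the 9 genes in NeuN+ Mutyh-/-, Ogg1-/- and DKO, where 18.7%, 12.3% and 13.5% of all genes did, and 1, 2 and 1 in NeuN-, where 13.7%, 11.8% and 12.4% did. DESeq2 called 1 of the 54 differences from WT, that of Fibcd1 in Ogg1-/- NeuN-. The median log2 fold change of the 9 genes was -0.03, -0.11 and -0.01 in NeuN+ and -0.07, -0.10 and -0.12 in NeuN-, and over all genes tested the medians lay between -0.01 and 0.01. The 3 knockouts share the WT libraries, so their differences from WT are not independent of each other.

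**Figure D1:**
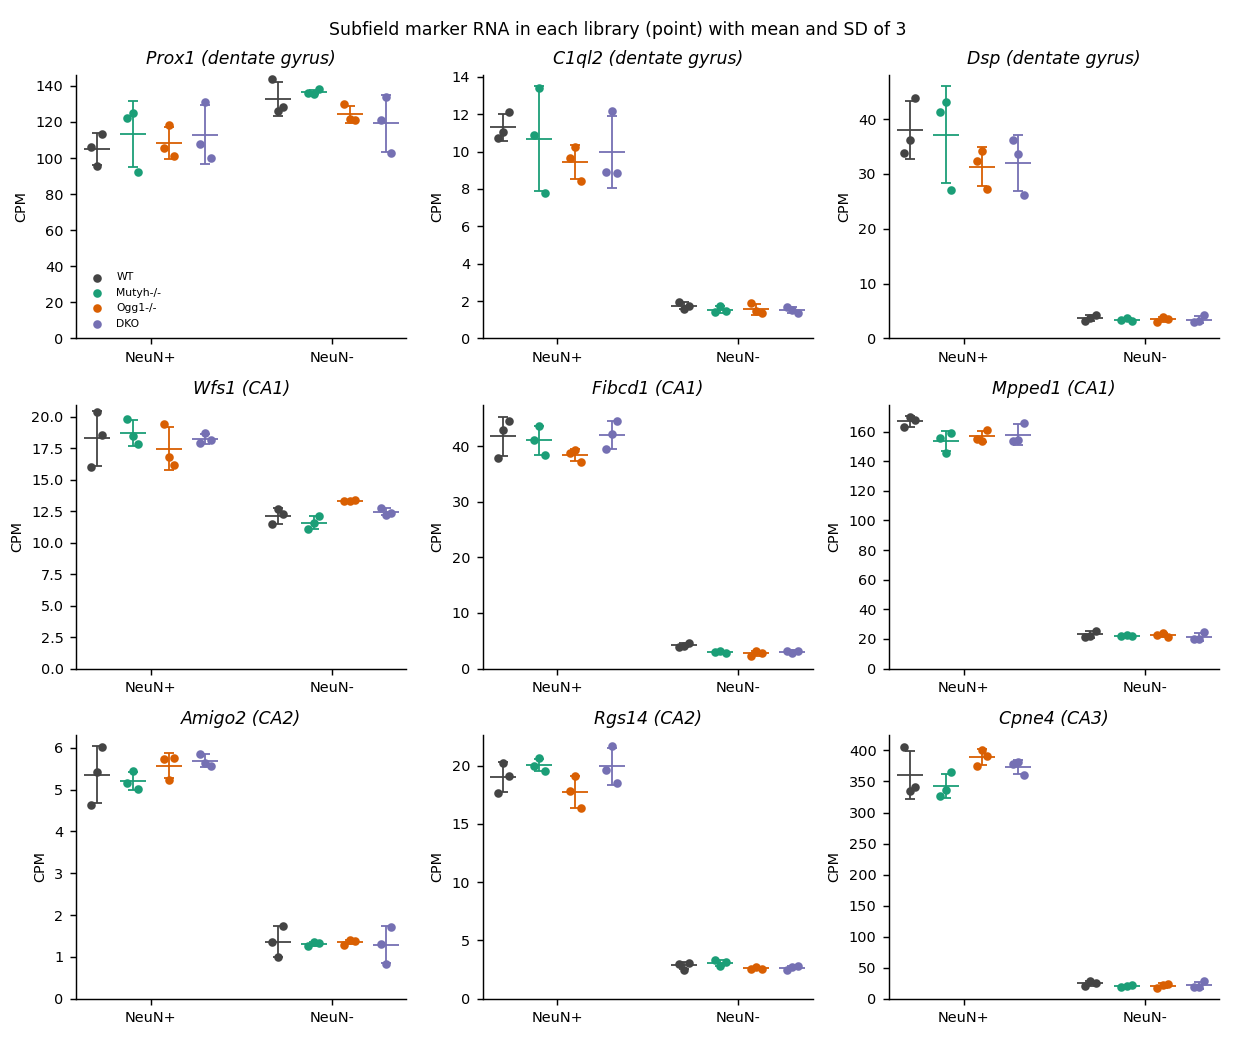
Level of each of the 9 subfield genes in every library (CPM on the y axis, starting at 0; NeuN+ left and NeuN- right in each panel; 1 point per library, bar and whiskers for the mean and SD of 3). In NeuN+ most knockout groups overlap WT, except Mpped1 in Mutyh-/- and Ogg1-/- and C1ql2 in Ogg1-/-, and Prox1 is the gene whose WT level is higher in NeuN- than in NeuN+.

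Among the dentate gyrus genes, Prox1 encodes the homeobox factor that sets and keeps granule cell identity, and it lies at chr1:190118035-190170714 on the minus strand (GRCm38), where its exons overlap the antisense gene Prox1os. Prox1 was at 106, 95.5 and 113 in WT, 122, 125 and 92.0 in Mutyh-/-, 106, 118 and 101 in Ogg1-/- and 108, 131 and 99.97 in DKO (CPM in NeuN+ libraries). The genotypes overlapped throughout, and replicate 3 was the lowest library in each knockout. The log2 difference from WT was 0.11 (95% interval -0.13 to 0.36) in Mutyh-/-, 0.03 in Ogg1-/- and 0.09 for DKO, with adjusted p of 0.65, 0.95 and 0.78 (edgeR).

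C1ql2 encodes a secreted C1q-like protein of mossy fibre synapses (chr1:120340582-120343174, plus strand). It was at 10.7, 11.1 and 12.1 in WT, 10.9, 13.4 and 7.80 in Mutyh-/-, 9.68, 10.2 and 8.42 in Ogg1-/- and 8.90, 12.2 and 8.84 in DKO (CPM). The 3 Ogg1-/- libraries all lay below the 3 WT libraries, whereas the Mutyh-/- libraries ran from below the lowest to above the highest WT library and the DKO libraries from below the lowest to just above the highest. The log2 difference was -0.28 (95% interval -0.62 to 0.07) in Ogg1-/- (edgeR adjusted p = 0.54), -0.08 in Mutyh-/- and -0.19 in DKO.

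Dsp encodes desmoplakin, which links desmosomes to intermediate filaments and marks granule cells in this tissue (chr13:38151294-38198577, plus strand, with an exon overlap on the opposite strand by Gm10129). It was at 33.9, 36.1 and 43.9 in WT, 41.4, 43.1 and 27.0 in Mutyh-/-, 32.4, 34.2 and 27.3 in Ogg1-/- and 36.2, 33.6 and 26.2 in DKO (CPM). Groups overlapped here too, with the lowest values in replicate 3 of every knockout and the highest in WT replicate 3. Dsp had the largest difference of the 9 genes in NeuN+, -0.30 (95% interval -0.64 to 0.04) in Ogg1-/- (edgeR adjusted p = 0.49), and its difference was -0.26 (95% interval -0.60 to 0.08) in DKO (adjusted p = 0.50) and -0.03 in Mutyh-/-. The intervals of C1ql2 and Dsp in Ogg1-/- and DKO were the only 4 of 27 in NeuN+ that reached past a log2 change of 0.5, so for these a level lower by 0.5 still lay within the interval.

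Because Prox1, C1ql2 and Dsp varied together between libraries, as described further on, the 250 bases before their annotated starts are shown with the E-box CAGATG, the form read by proneural helix-loop-helix factors, in capitals (CAGATG or its reverse complement CATCTG). The sequences are from RefSeq on GRCm38.p6, written 5' to 3' on the strand of the gene, from chr1:190170828-190171077 (minus) for Prox1, chr1:120340332-120340581 (plus) for C1ql2 and chr13:38151044-38151293 (plus) for Dsp.
Prox1: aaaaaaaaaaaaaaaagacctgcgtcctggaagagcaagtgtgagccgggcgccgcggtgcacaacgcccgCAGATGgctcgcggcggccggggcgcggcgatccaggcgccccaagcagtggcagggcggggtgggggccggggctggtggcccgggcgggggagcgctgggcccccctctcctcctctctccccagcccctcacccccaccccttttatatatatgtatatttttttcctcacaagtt
C1ql2: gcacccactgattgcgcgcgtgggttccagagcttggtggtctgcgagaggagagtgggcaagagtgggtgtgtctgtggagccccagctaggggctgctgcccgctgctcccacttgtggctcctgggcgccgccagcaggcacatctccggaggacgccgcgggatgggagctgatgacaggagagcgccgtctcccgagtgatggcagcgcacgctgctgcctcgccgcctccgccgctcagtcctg
Dsp: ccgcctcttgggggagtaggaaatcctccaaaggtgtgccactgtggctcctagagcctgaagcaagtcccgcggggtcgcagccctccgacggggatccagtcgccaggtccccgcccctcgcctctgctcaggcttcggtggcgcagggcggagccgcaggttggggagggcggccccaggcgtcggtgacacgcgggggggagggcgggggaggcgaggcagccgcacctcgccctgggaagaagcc
RefSeq gives 2 starts for Prox1, and the window of the upstream one is printed. The motif stood 1 time in that window, 0 times in the other (chr1:190169516-190169765), and was not among the letters of the windows of C1ql2 and Dsp. It was found in 14.4% of 32851 such windows genome-wide, and in 2 of the 11 windows that 8 of the 9 genes had (1 of Prox1 and 1 of Wfs1). A match is a stretch of letters and no evidence of binding.

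Among the CA1 genes, Wfs1 encodes wolframin, a membrane protein of the endoplasmic reticulum (chr5:36966104-36989205, minus strand). Wfs1 ranged from 16.0 to 20.4 CPM in WT NeuN+, from 17.9 to 19.8 CPM in Mutyh-/-, from 16.2 to 19.4 CPM in Ogg1-/- and from 17.9 to 18.7 CPM in DKO. All knockout values fell inside the WT range. The log2 differences were 0.04, -0.09 and -0.02, with intervals between -0.27 and 0.23.

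Fibcd1 encodes a transmembrane receptor that binds acetylated groups (chr2:31813290-31846005, minus strand). In NeuN+ it was at 37.9, 43.0 and 44.6 in WT, 41.2, 43.6 and 38.4 in Mutyh-/-, 38.8, 39.4 and 37.2 in Ogg1-/- and 39.5, 42.3 and 44.5 in DKO (CPM). The knockout groups overlapped WT. The Ogg1-/- libraries lay below the DKO libraries, a comparison in which 9.21% of all genes did not overlap. The log2 difference from WT was -0.14 (95% interval -0.29 to 0.01) in Ogg1-/- (edgeR adjusted p = 0.46) and -0.02 and -0.01 in Mutyh-/- and DKO.

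Mpped1 encodes a metallophosphoesterase domain protein (chr15:83779467-83858494, plus strand). It was at 163, 170.1 and 168 in WT, 156, 146 and 159 in Mutyh-/-, 155, 154 and 161 in Ogg1-/- and 154, 154 and 166 in DKO (CPM). Libraries of Mutyh-/- and Ogg1-/- all lay below the 3 WT libraries, and in DKO 2 of 3 did. The differences were small, -0.11 (95% interval -0.22 to -0.01) in Mutyh-/-, -0.11 (95% interval -0.21 to -0.00) in Ogg1-/- and -0.09 (95% interval -0.20 to 0.01) for DKO, with edgeR p of 0.0334, 0.0439 and 0.0718 before and 0.23, 0.39 and 0.42 after adjustment. Mpped1 had the least spread of the 9 genes, with an SD of 0.05 on the log2 scale between libraries of a genotype, lower than that of all but 7.09% of genes tested.

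Of the CA2 genes, Amigo2 encodes a leucine-rich repeat adhesion protein (chr15:97244125-97247287, minus strand, with an exon overlap on the opposite strand by Pced1b), and Rgs14 encodes a regulator of G protein signalling that restrains synaptic plasticity in CA2 (chr13:55369732-55384687, plus strand). Amigo2 ranged from 4.64 to 6.01 CPM in WT NeuN+ and from 5.01 to 5.86 CPM over the 9 knockout libraries, all of them inside the WT range. Its log2 differences from WT were -0.04, 0.04 and 0.07 in Mutyh-/-, Ogg1-/- and DKO. Rgs14 was at 17.7, 20.2 and 19.2 in WT, 19.97, 20.6 and 19.6 in Mutyh-/-, 17.8, 19.1 and 16.3 in Ogg1-/- and 19.7, 21.7 and 18.5 in DKO (CPM). Ogg1-/- had the lowest and the highest was a DKO library, with every knockout group overlapping WT. The log2 differences from WT were 0.08, -0.12 and 0.05.

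The CA3 gene, Cpne4, encodes a calcium-dependent phospholipid-binding protein of the copine family (chr9:104547286-105034544, plus strand). It was at 406, 335 and 341 in WT, 326, 337 and 365 in Mutyh-/-, 375, 401 and 390.5 in Ogg1-/- and 379, 381 and 360.4 in DKO (CPM). WT replicate 1 was the highest library of all 12, and the other 2 WT libraries were among the lower ones. The log2 differences from WT were -0.07, 0.09 and 0.04 in Mutyh-/-, Ogg1-/- and DKO, each with an interval inside 0.23 on either side of 0.

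In NeuN+ the libraries of Mutyh-/-, Ogg1-/- and DKO did not overlap those of WT for 1, 2 and 0 of the 9 genes, all lower than WT, against 21.6%, 20.1% and 17.5% of all genes. In all, 23 of the 27 intervals of NeuN+ lay within 0.5 on either side of 0, and their outermost bounds were -0.64 and 0.36. Beside these values, a list of 9 interneuron genes had 0 calls in NeuN+ and negative log2 fold changes for 8, 6 and 8 of 9 in Mutyh-/-, Ogg1-/- and DKO (medians -0.37, -0.19 and -0.26). At an unadjusted p under 0.05 (edgeR quasi-likelihood test) stood 7, 2 and 5 of the 9, where 18.7%, 12.3% and 13.5% of all genes did. Their summed level, which weighs the genes of higher level more, did not fall likewise. It ranged from 1152 to 1272 CPM in WT, 1161 to 1246 CPM in Mutyh-/-, 1216 to 1301 CPM in Ogg1-/- and 1158 to 1228 CPM in DKO, so each knockout overlapped WT. The summed level of 4 subiculum genes ranged from 319 to 354 CPM in WT, 229 to 436 CPM in Mutyh-/-, 364 to 413 CPM in Ogg1-/- and 298 to 360 CPM in DKO. The summed level of 3 mossy cell genes in NeuN+ ranged from 10.1 to 11.5 CPM in WT and from 7.55 to 8.80 CPM in Mutyh-/-, all lower (3 of 3 genes below 0, median log2 fold change -0.36, 0 called), while Ogg1-/- (9.54 to 11.0 CPM) and DKO (8.80 to 10.8 CPM) overlapped WT. The part of these cells in the members' levels was not tested. Set against each other, the knockouts in NeuN+ also gave 0 of 9 calls, with 0.216% of all genes called for DKO against Ogg1-/-, 0.139% for DKO against Mutyh-/- and 0.485% for Ogg1-/- against Mutyh-/-. The genes farthest apart between knockouts were Dsp and Rgs14 in Ogg1-/- against Mutyh-/-, -0.27 (95% interval -0.61 to 0.07) and -0.20 (95% interval -0.36 to -0.04) (edgeR adjusted p = 0.51 and 0.28). For Rgs14 the libraries of these genotypes did not overlap, nor did those of Cpne4, which was 0.16 higher in Ogg1-/- (edgeR adjusted p = 0.31). Over all genes 17.2% did not overlap in that comparison. In DKO against Mutyh-/- the libraries of 1 of 9 genes, Amigo2, did not overlap, where 11% of all genes did not.

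**Figure D2:**
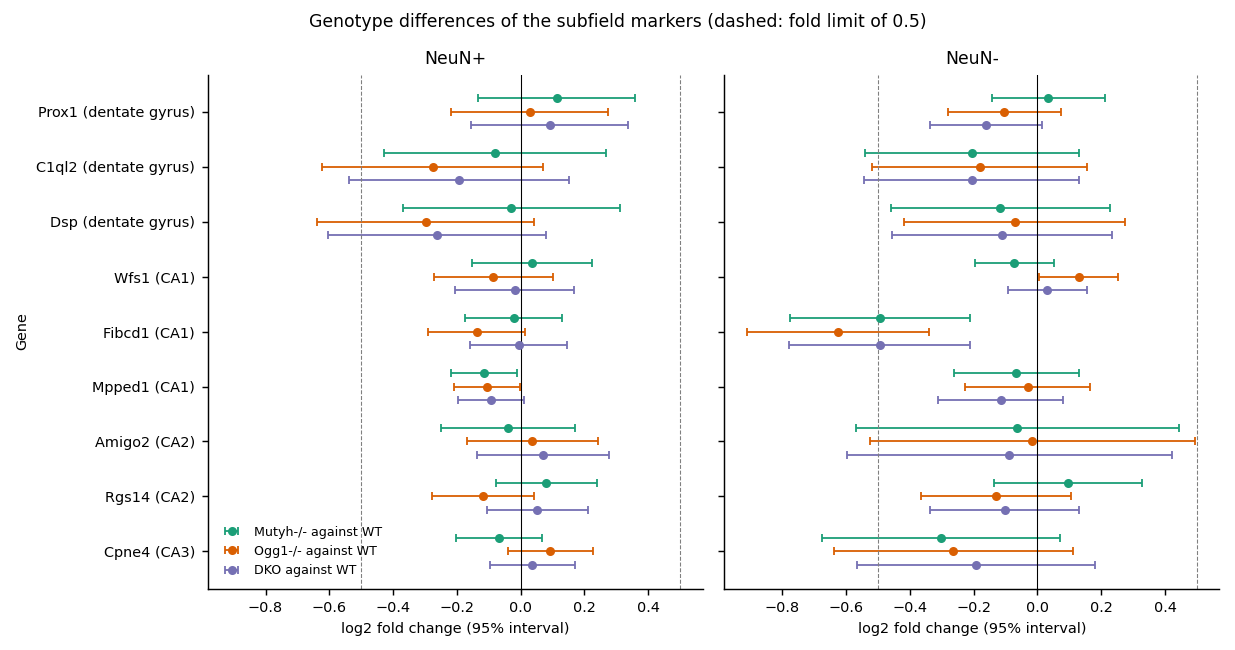
Log2 fold change of each subfield gene against WT (points) with its 95% interval (whiskers) in NeuN+ (left) and NeuN- (right), from the edgeR fit of the 12 libraries of a fraction; dashed lines mark 0.5 on either side of 0. In NeuN+ 25 of 27 intervals hold 0, the others being Mpped1 in Mutyh-/- and Ogg1-/-, and Fibcd1 in NeuN- is the gene whose 3 intervals all lie below 0.

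The make-up was also summarised as the summed CPM of the 3 dentate gyrus genes over that of the 3 CA1 genes in each library. This ratio depends on the lengths and levels of the genes summed, so only its differences between libraries carry meaning. In NeuN+ the ratio was 0.680 ± 0.0625 in WT, 0.755 ± 0.149 in Mutyh-/-, 0.701 ± 0.0689 in Ogg1-/- and 0.713 ± 0.117 in DKO (mean ± SD, n = 3 each). The WT libraries ran from 0.611 to 0.734 and the others from 0.588 to 0.873, 0.637 to 0.774 and 0.591 to 0.823, so all groups overlapped and the genotype means differed by less than the SD within Mutyh-/-. Replicate 2 was the highest and replicate 3 the lowest in each knockout, while in WT replicate 3 was the highest. Mpped1 makes up most of the CA1 sum, 163 of 217 CPM in WT NeuN+ replicate 1. Its log2 differences from WT in NeuN+ were -0.11, -0.11 and -0.09, so the ratio also follows the level of this gene. Prox1 makes up most of the dentate gyrus sum, and without it the ratio was 0.217 ± 0.0224 in WT, 0.225 ± 0.0569 in Mutyh-/-, 0.192 ± 0.0228 in Ogg1-/- and 0.193 ± 0.0345 in DKO.

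**Figure D3:**
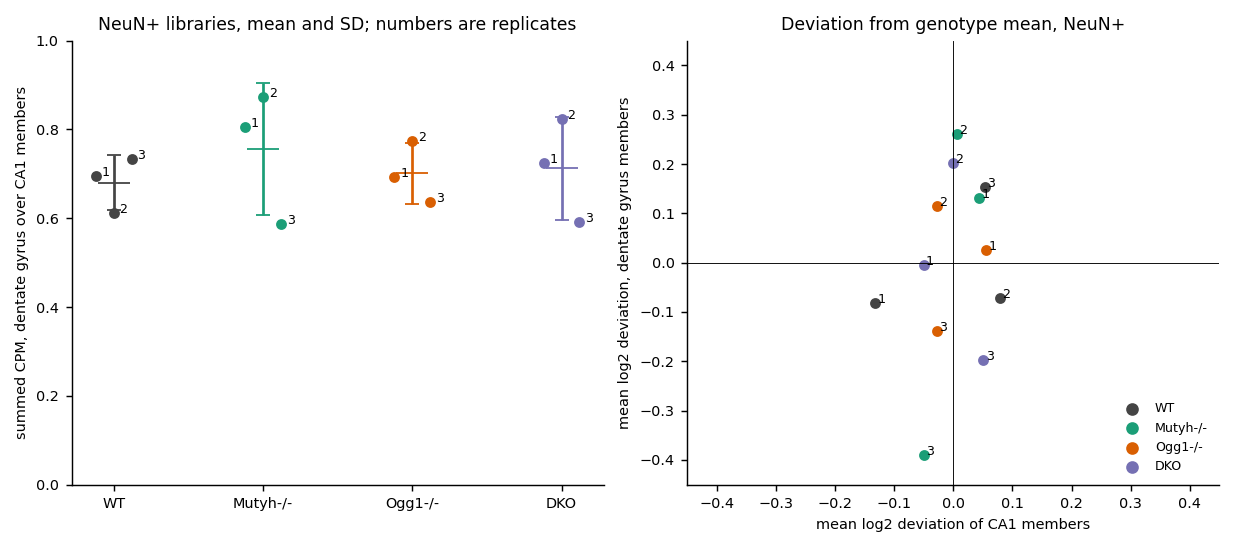
Left, summed CPM of Prox1, C1ql2 and Dsp over that of Wfs1, Fibcd1 and Mpped1 in the 12 NeuN+ libraries, with the mean and SD of each genotype. Right, mean log2 deviation of the dentate gyrus genes from their genotype mean (y axis) against that of the CA1 genes (x axis), 1 point per library; the dentate gyrus genes range from -0.39 to 0.26 and the CA1 genes from -0.13 to 0.08.

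The dentate gyrus genes were the least even between replicates. Their SD between NeuN+ libraries of a genotype was 0.18 for Prox1, 0.26 for C1ql2 and 0.26 for Dsp on the log2 scale, against a median of 0.16 over all genes, while the 6 CA genes lay between 0.05 and 0.12. Taken as deviations from the genotype mean over the 12 NeuN+ libraries, these 3 genes moved together, with Pearson's r of 0.91 for Prox1 and C1ql2, 0.82 for Prox1 and Dsp and 0.79 for C1ql2 and Dsp. Their mean deviation was -0.39 in Mutyh-/- replicate 3, -0.20 in DKO replicate 3 and -0.14 in Ogg1-/- replicate 3, and 0.26 in Mutyh-/- replicate 2, 0.20 in DKO replicate 2 and 0.15 in WT replicate 3. These correlations describe 12 libraries that also share depth and composition and were given no test.

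CA genes did not move as one block. Wfs1 and Fibcd1 had an r of 0.60, and Mpped1 had 0.20 and 0.15 with them and -0.63, -0.60 and -0.58 with Prox1, C1ql2 and Dsp. Cpne4 ran against both Wfs1 and Fibcd1, with r of -0.87 and -0.82, and against Amigo2 with -0.73. The CA2 genes had an r of 0.24 with each other, while Rgs14 had 0.67 with C1ql2. Of the 36 pairs of the 9 genes, 12 had a negative r.

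**Figure D4:**
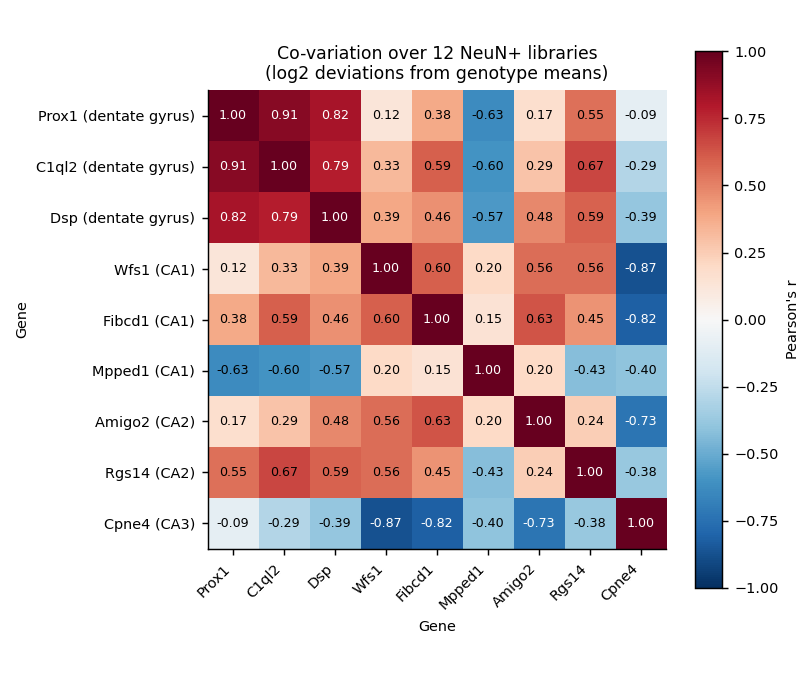
Pearson's r of log2 deviations from the genotype mean for each pair of the 9 subfield genes over the 12 NeuN+ libraries (colour scale from -1 to 1, value in each cell). The 3 dentate gyrus genes form a block at 0.79 to 0.91, and Cpne4 and Mpped1 hold most of the negative values.

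The co-variation of the dentate gyrus genes was not limited to them. All 9 of 9 other granule cell genes from a list made by hand had a positive r with their mean deviation (median 0.54), against a median of -0.01 over all genes. Of other CA genes listed by hand, the 8 for CA2 had a median r of 0.36 (from -0.36 to 0.95, 5 positive). The 6 for CA3 had a median of 0.13 (from -0.435 to 0.83, 4 positive) and the 6 for CA1 had 0.17 (from -0.71 to 0.61, 3 positive). Neuronal genes that are not particular to granule cells mostly had a positive r as well. The 4 excitatory neuron genes lay between 0.77 and 0.95, and 8 of 9 interneuron genes were above 0 (median 0.71, from -0.16 for Pvalb, a calcium-binding protein, to 0.86 for Gad1, a GABA-synthesising enzyme). The sum of 81 ribosomal protein genes had 0.70. The 4 subiculum genes ranged from -0.71 to 0.21 with a median of -0.54, 3 of them below 0. The mean deviation had an r of 0.67 with the first principal component of all genes, which held 21.6% of the variance, and of -0.54 with the total count of the library, and 4.33% of genes had an r beyond 0.8 in either direction. The part of cell make-up, RNA quality and depth in this pattern was not tested.

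The genes most like each member over the 12 NeuN+ libraries, by Pearson's r of log2 CPM among 30131 genes, were Iqsec2 (0.97) and Dkk3 (0.95) for Prox1, Nlgn3 (0.95) and Cox6c (0.94) for C1ql2, and Arl6ip5 (0.97) and Dnm1 (0.93) for Dsp. For the CA1 genes they were Gm16343 (0.89) and Hyal3 (0.89) for Wfs1, Gnb2 (0.95) and Gm16596 (0.94) for Fibcd1, and Gm47352 (0.91) and Gm29343 (0.90) for Mpped1. For the CA2 and CA3 genes they were Cotl1 (0.92) and Ski (0.90) for Amigo2, Scamp3 (0.91) and Mir7225 (0.91) for Rgs14, and Rapgef4 (0.94) and Gm22710 (0.93) for Cpne4. None of these 18 was another of the 9 genes, and only 3 of the 18 were also among the 2 most alike by Spearman's rho, so the rest depended on the measure.

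The sorted fractions show which of the 9 genes were neuronal in these preparations. In WT, 7 of 9 were called higher in NeuN+ than in NeuN- (adjusted p under 0.05 and an absolute log2 difference above 1), where 21.3% of all genes were called higher and 42.9% in either direction. The CA3 gene Cpne4 had the largest difference, 3.85 (95% interval 3.55 to 4.16), then Dsp with 3.37, Fibcd1 with 3.31, Mpped1 with 2.86, Rgs14 with 2.73, C1ql2 with 2.68 and Amigo2 with 1.97, each with an edgeR adjusted p of at most 5.45e-10. Rbfox3, by whose protein the nuclei were sorted, differed by 4.02. In NeuN- these 7 genes stood at 6.92% (Cpne4) to 25.4% (Amigo2) of their NeuN+ level, with Rbfox3 at 6.17%, Slc17a7 at 10.9% and Camk2a at 11.5%.

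**Figure D5:**
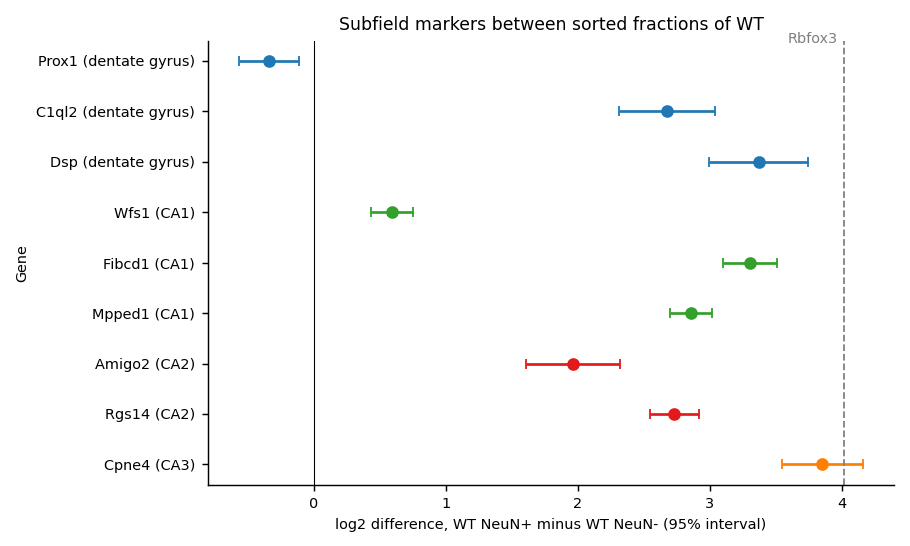
Log2 difference between WT NeuN+ and WT NeuN- (x axis, points) with its 95% interval (whiskers) for each subfield gene, coloured by subfield; the dashed line is Rbfox3 at 4.02. 7 genes lie at 1.97 or above, with Wfs1 at 0.59 and Prox1 below 0.

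Prox1 and Wfs1 were the exceptions. Prox1 was at 106, 95.5 and 113 CPM in WT NeuN+ and at 144, 126 and 128 CPM in WT NeuN-. All 3 NeuN- libraries were above the 3 NeuN+ libraries, and the log2 difference was -0.34 (95% interval -0.57 to -0.11), lower in NeuN+ (edgeR adjusted p = 0.00907). This did not hold in every setting. With upper-quartile factors the difference was -0.23 with an edgeR adjusted p of 0.0627, and without WT NeuN+ replicate 2 or WT NeuN- replicate 1 it was -0.27 and -0.28 with 0.0553 and 0.0506; over all settings the adjusted p ranged from 0.00159 to 0.0627. Prox1 is also known from interneurons, the oligodendrocyte lineage and lymphatic endothelium, and beside it the summed level of 3 oligodendrocyte precursor genes ranged from 17.3 to 19.3 CPM in WT NeuN+ and from 479 to 539 CPM in WT NeuN-; the part of these cells in the Prox1 level was not tested. Wfs1 was at 16.0, 20.4 and 18.6 CPM in WT NeuN+ and at 11.5, 12.7 and 12.3 CPM in WT NeuN-. It was higher in NeuN+ in every library, with a difference of 0.59 (95% interval 0.44 to 0.75) (edgeR adjusted p = 2.99e-07) that did not reach the limit of 1. The levels of Prox1 and Wfs1 in NeuN- thus do not follow the other members of their subfields, and the dentate gyrus to CA1 ratio of the NeuN- libraries, 3.34 to 3.86 in the group means, rests on Prox1.

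Other genes of the 4 subfields, listed by hand, were examined in the same fits. Of 29 tested, 16 were called higher in WT NeuN+ and 1 lower, where 21.3% of all genes were called higher and 21.6% lower. Among the genes with the highest WT NeuN+ level in each list, those called higher included Man1a, a mannosidase (1.495), for CA1, Ntf3, a neurotrophin (3.16), and Necab2, a calcium-binding protein (2.41), for CA2, and Grik4, a kainate receptor subunit (1.45), for CA3. Glis3, a zinc finger factor (0.96), and Pdzd2, a PDZ domain protein (0.81), for the dentate gyrus, passed the adjusted p but not the fold limit, and Homer3, a postsynaptic scaffold in the CA3 list, was at -0.32. The 1 gene called lower was Dock10, in the dentate gyrus list, at -1.92, named after its values were seen. In the 6 comparisons with WT, 0 of the 29 genes tested in NeuN+ and 0 of the 28 tested in NeuN- were called. At an unadjusted p under 0.05 stood 9, 5 and 4 of 29 in NeuN+ for Mutyh-/-, Ogg1-/- and DKO, beside the 18.7%, 12.3% and 13.5% of all genes, and 6, 3 and 4 of 28 in NeuN-, beside 13.7%, 11.8% and 12.4%. Over these genes the median log2 fold change was 0.04, -0.03 and 0.04 in NeuN+ and -0.12, -0.06 and -0.07 in NeuN-.

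Taken by subfield, the summed level of the 6 other CA3 genes in NeuN+ ranged from 730 to 760 CPM in WT, 772 to 933 CPM in Mutyh-/-, 809 to 897 CPM in Ogg1-/- and 846 to 879 CPM in DKO. All 9 knockout libraries lay above the 3 WT libraries, which was not so for Cpne4. Their median log2 fold changes were 0.18, 0.02 and 0.03, with 4, 4 and 5 of 6 above 0 and 0 called, and a sum weighs the genes of higher level more than a median does. The sum of the 9 other dentate gyrus genes in NeuN+ ranged from 1118 to 1215 CPM in WT and from 1245 to 1290 CPM in DKO, which lay above it, while Mutyh-/- (1174 to 1340 CPM) and Ogg1-/- (1134 to 1318 CPM) overlapped WT. Their median log2 fold changes were 0.06, 0.03 and 0.07, with 7, 5 and 6 of 9 above 0. In WT these 9 genes, which include Dock10, summed to 1375 to 1477 CPM in NeuN-, above their sum in NeuN+. Their sum is thus not particular to neuronal nuclei. The sums of the other CA1 and CA2 genes overlapped WT in each knockout in NeuN+. Beside them, the sum of 4 general neuronal genes in NeuN+ ranged from 4726 to 5111 CPM in WT. Mutyh-/- (5176 to 5544 CPM) lay above it, and Ogg1-/- (4880 to 5370 CPM) and DKO (5077 to 5302 CPM) overlapped it. The mean sum of the 4 excitatory neuron genes was 1406 CPM in WT and 1522.5, 1423 and 1495 CPM in the knockouts, all overlapping WT. The part of these general levels in the subfield sums was not tested. Differences between these sums were given no test.

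In NeuN- nuclei Fibcd1 had the largest difference between genotypes of the 9 genes. It was at 3.87, 4.14 and 4.67 in WT, 3.00, 3.23 and 2.82 in Mutyh-/-, 2.25, 3.22 and 2.80 in Ogg1-/- and 3.19, 2.72 and 3.12 in DKO (CPM). All 9 knockout libraries lay below the 3 WT libraries. The log2 difference from WT was -0.49 (95% interval -0.77 to -0.21) in Mutyh-/-, -0.63 (95% interval -0.91 to -0.34) in Ogg1-/- and -0.50 (95% interval -0.78 to -0.21) in DKO. By edgeR's quasi-likelihood test p was 0.00244, 0.000446 and 0.00245 before adjustment and 0.17, 0.0799 and 0.18 after it, so none was called. The call depended on the fit. In Ogg1-/- the log2 difference was -0.62 with an adjusted p of 0.00305 by DESeq2 and 0.00367 by edgeR with all 24 libraries in one fit, and by edgeR's likelihood ratio test it was 0.00884, all past both limits. Over all alternatives its adjusted p ranged from 0.00305 to 0.253. In Mutyh-/- and DKO the adjusted p was 0.0338 and 0.0394 by DESeq2 and 0.0254 and 0.0315 by edgeR in the fit of all 24 libraries, with log2 differences of -0.48 to -0.49 that did not reach 0.5, and over all alternatives the adjusted p ranged from 0.0254 to 0.54 and from 0.0315 to 0.379. Without 1 library at a time, the edgeR quasi-likelihood difference in Ogg1-/- ranged from -0.75 to -0.49 and gave no call. Fibcd1 and Wfs1 account for the genes whose libraries did not overlap in NeuN-, 1, 2 and 1 of 9, where 19.2%, 19.4% and 16.8% of all genes did not overlap. The difference between fractions in the effect of a genotype on Fibcd1 was 0.46, 0.50 and 0.50 (adjusted p = 0.32, 0.41 and 0.24 by edgeR, and 0.0334 for DKO by DESeq2), and 0 of 9 genes passed that test in any genotype by edgeR, where 0.0209%, 0.0537% and 0.0567% of all genes did.

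The level of Fibcd1 in NeuN- was low, 10.1% of the NeuN+ level in WT, and other neuronal genes are given beside it. The summed level of 4 excitatory neuron genes in NeuN- ranged from 151 to 171 CPM in WT, 132 to 154 CPM in Mutyh-/-, 127 to 145 CPM in Ogg1-/- and 128 to 141 CPM in DKO, and all 4 of 4 had a negative log2 fold change in each knockout, with medians of -0.14, -0.33 and -0.28 and 0 of 4 called. The sums of Ogg1-/- and DKO lay below WT and that of Mutyh-/- overlapped it. The summed level of the 9 interneuron genes in NeuN- overlapped WT (341 to 355 CPM) in Mutyh-/- (344 to 363 CPM) and Ogg1-/- (316 to 348 CPM) and lay below it in DKO (322 to 339 CPM). That of 3 mossy cell genes ranged from 10.2 to 13.0 CPM in WT and from 8.02 to 9.96 CPM over the 9 knockout libraries, all of them lower, with 0 of 3 called. The log2 fold change was negative for 2, 3 and 2 of the 3 genes in Mutyh-/-, Ogg1-/- and DKO. In WT the mossy cell sum was no higher in NeuN+ (10.1 to 11.5 CPM) than in NeuN-, unlike the excitatory neuron and interneuron sums. Mpped1, the other CA1 gene at a like share of its neuronal level in NeuN- (13.8%), differed from WT by -0.07, -0.03 and -0.12, within its intervals of -0.31 to 0.17. Cpne4 in NeuN- was at 21.1, 28.6 and 25.1 in WT, 19.2, 20.01 and 21.8 in Mutyh-/-, 16.6, 22.1 and 23.9 in Ogg1-/- and 18.7, 18.8 and 28.2 in DKO (CPM). Its groups overlapped, and its log2 differences were -0.30, -0.26 and -0.19. The part of residual neuronal nuclei in these differences was not tested.

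The remaining members differed less from WT in NeuN-. Wfs1 was at 11.5, 12.7 and 12.3 in WT, 11.1, 11.6 and 12.1 in Mutyh-/-, 13.3, 13.3 and 13.4 in Ogg1-/- and 12.8, 12.2 and 12.3 in DKO (CPM). The 3 Ogg1-/- libraries lay close together above the 3 WT libraries, with a log2 difference of 0.13 (95% interval 0.01 to 0.25) (edgeR adjusted p = 0.40). Prox1 was at 144, 126 and 128 in WT, 136, 136 and 138 in Mutyh-/-, 129.8, 122 and 121 in Ogg1-/- and 121, 134 and 103 in DKO (CPM), and C1ql2 ranged from 1.33 to 1.97 CPM and Dsp from 2.94 to 4.25 CPM over all 12 libraries. Their groups overlapped, as did those of the CA2 genes, with log2 differences from WT between -0.21 and 0.03 for the dentate gyrus genes and between -0.13 and 0.10 for Amigo2 and Rgs14. Intervals were wider at these low levels. In NeuN- 15 of 27 lay within 0.5 on either side of 0, and those of Amigo2, at 0.84 to 1.74 CPM, reached from -0.60 to 0.49. Glial markers in NeuN- are given beside these values. The 6 astrocyte genes summed to 2788.5 to 3314 CPM in WT, 2852.5 to 3745 CPM in Mutyh-/-, 3247 to 4112 CPM in Ogg1-/- and 3468 to 3628 CPM in DKO, and 6 of 6 had a positive log2 fold change in Ogg1-/- (median 0.25, with Aldh1l1 called) and in DKO (median 0.25, 0 called). The 5 oligodendrocyte genes summed to 5911 to 6645 CPM in WT, 5505 to 6765 CPM in Mutyh-/-, 5045 to 5667 CPM in Ogg1-/- and 4500.5 to 5578 CPM in DKO, with 5 of 5 below 0 in Ogg1-/- and DKO (medians -0.22 and -0.23) and 0 called. The part of the glial make-up in the members' NeuN- differences was not tested. A choroid plexus list varied most among the other cell types in NeuN-, from 7.20 to 220.4 CPM over the libraries, highest in DKO replicate 3. Of the DKO libraries, that library had the highest Dsp, Mpped1, Amigo2, Rgs14 and Cpne4 values and the lowest Prox1 and C1ql2 values. Its Wfs1 and Fibcd1 values lay between those of the other DKO libraries. The part of choroid plexus cells in the members' levels was not tested.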

How the data were processed

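Nuclei of dissected hippocampi were sorted by NeuN, and nuclear RNA was sequenced with the SMARTer Stranded Total RNA-Seq kit. Per the methods of the study and the submitters' processing notes, the authors aligned paired-end reads to GRCm38 with HISAT2 2.1.0 and counted them per gene of Ensembl 102 with featureCounts, and they deposited raw counts for 55254 genes in 24 libraries. How strand, overlapping genes and reads with several alignments were treated is not given in the sources used here, so the counts of Prox1, Dsp and Amigo2, whose exons overlap a gene on the other strand, are uncertain.

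Counts were fitted with edgeR 4.0.16 in R 4.3.3 (filterByExpr, TMM factors, quasi-likelihood test, Benjamini-Hochberg adjustment). The 12 libraries of a fraction were fitted together (30132 genes in NeuN+, 31863 in NeuN-), and all 24 (33523 genes) for differences between fractions and for whether a genotype's effect differed between them. Calls needed an adjusted p under 0.05 and, between genotypes, a log2 fold change beyond 0.5, or beyond 1 between fractions. Correlations used log2 CPM with a prior count of 2. No libraries of a group held the same values. Alternatives were DESeq2 1.42.0, the likelihood ratio test, other size factors, filters and sample sets, a replicate block and leaving out each library. Scripts were tested on simulated counts.

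The members and gene lists were chosen with earlier results of these data known. Named genes are the 9 members, the 2 genes of highest WT NeuN+ level in each companion list and any called between genotypes, the 2 most like each member, marker genes beside a result, and Ogg1 and Mutyh. A gene that the rule names is not reported here. Genes named outside this rule, such as Dock10, were chosen after their values were seen. Gene positions are from GENCODE vM21 on GRCm38.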

Additional observations from a re-analysis of the deposited data

How the results depend on the processing

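Counts of called subfield genes stayed as reported except for Fibcd1. Of the 9 genes, 1 (Fibcd1) was called in Ogg1-/- NeuN- under the likelihood ratio test, under DESeq2 and in the fit of all 24 libraries, and 1 (Fibcd1) for the DKO effect between fractions under DESeq2, in place of 0. In the other alternatives, other size factors, count filters and sample sets, the count was 0 in each comparison between genotypes. Between the WT fractions it was 7, or 6 with a limit of 2 on the log2 difference, where Amigo2 at 1.97 was no longer called. Leaving out 1 library at a time gave 0 and 7 throughout. Without Prox1 in the dentate gyrus sum, an alternative chosen after seeing the data, the log2 ratio of dentate gyrus to CA1 genes relative to WT was -0.18 in Ogg1-/- and -0.18 in DKO in NeuN+, against 0.04 and 0.06 with Prox1, and -0.039 in Mutyh-/- NeuN-, against 0.14. The sign in NeuN+ also depended on how the genes were combined. With geometric means in place of sums, the ratio relative to WT was negative in Ogg1-/- and DKO, and with the companion lists added to the sums it was positive.

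With the replicate number as a replicate block in the fits of a fraction, the counts were also 0. In the fits of both fractions the replicate block was genotype and number together, which pairs NeuN+ with NeuN- libraries. There the counts were also 0 and 7, and no call changed. In the main fits the numbers were not taken to pair the samples. Deviations of NeuN+ and NeuN- libraries of 1 genotype and number had correlations of 0.02 to 0.34, above 0.1 in 8 of 12 pairs, those of 1 fraction and number in different genotypes had -0.27 to 0.30, above 0.1 in 9 of 36, and 21 of 24 libraries correlated best, in the other fraction of their genotype, with the library of their own number, which is a hint from the data and not from the design.

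Some differences that were not called lay so near 0 that their sign changed. Amigo2 in Ogg1-/- NeuN- was 0.017 with the replicate block. Fibcd1 in DKO NeuN+ was 3.506e-05 under DESeq2, 0.0089 with upper-quartile factors, 0.00826 with no low-count filter and 0.0094 in the fit of all 24 libraries. Without 1 library at a time, 23 log2 differences from WT took either sign. Prox1 ranged from -0.034 to 0.092 in Ogg1-/- NeuN+ and -0.028 to 0.17 in DKO NeuN+. C1ql2 ranged from -0.28 to 0.12 in Mutyh-/- NeuN+. Dsp ranged from -0.15 to 0.16 in Mutyh-/- NeuN+, -0.23 to 0.0038 in Mutyh-/- NeuN-, -0.19 to 0.053 in Ogg1-/- NeuN- and -0.28 to 0.0043 in DKO NeuN-. Wfs1 ranged from -0.056 to 0.13 in Mutyh-/- NeuN+, -0.11 to 0.074 in DKO NeuN+ and -0.012 to 0.062 in DKO NeuN-. Fibcd1 ranged from -0.093 to 0.032 in Mutyh-/- NeuN+ and -0.078 to 0.048 in DKO NeuN+. Mpped1 ranged from -0.12 to 0.019 in Mutyh-/- NeuN- and -0.089 to 0.0597 in Ogg1-/- NeuN-. Amigo2 ranged from -0.14 to 0.057 in Mutyh-/- NeuN+, -0.062 to 0.13 in Ogg1-/- NeuN+, -0.029 to 0.17 in DKO NeuN+, -0.23 to 0.15 in Mutyh-/- NeuN-, -0.18 to 0.20 in Ogg1-/- NeuN- and -0.34 to 0.13 in DKO NeuN-. Rgs14 ranged from -0.011 to 0.11 in DKO NeuN+. Cpne4 ranged from -0.11 to 0.019 in Mutyh-/- NeuN+ and -0.0041 to 0.12 in DKO NeuN+. With 3 libraries of pooled nuclei per group, changes smaller than the intervals were not detectable. Past 0.5 on the log2 scale reached 4 of 27 intervals in NeuN+ and 12 of 27 in NeuN-.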
